A study of Mus musculus with 15 samples.

Results

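The hemoglobin and erythroid genes are 7 of the 55450 genes counted in the gastrocnemius of 15 aged mice. They are the 4 adult globin genes Hba-a1, Hba-a2, Hbb-bs and Hbb-bt and the red-cell genes Alas2, Slc4a1 and Trim10, matched by symbol to the Ensembl identifiers of the count table. All 7 were found, and all 7 were among the 16920 genes that passed the filter on low counts. The list was chosen with results of these mice in view: Trim10 was selected because it is among the genes the authors called in High Run against High Control, and Hba-a1 and Hbb-bt belong to a hydrogen peroxide gene set that the authors reported for the High frailty marked mice and for the Frailty × Run interaction. Values in High Run against High Control and in the interaction are therefore given as a description without a test. The same holds for the other comparisons that include High mice. Only Low Run against Low Control is tested for single genes. The Low mice also enter the interaction, so that test is not fully independent of the choice.

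The mice were female C57BL/6JN animals more than 17 months old, with no transgene or deletion in any group. Low mice had at most 1 frailty marker and High mice at least 2, and they were either sedentary controls or were collected 24 h after the last of 2 bouts of treadmill running on a 22° decline at 13 m/min. The groups were Low Control (n = 4; mice D8, D9, D11 and D98), Low Run (n = 4; D57, D61, D66 and D68), High Control (n = 3; D23, D25 and D67) and High Run (n = 4; D49, D52, D53 and D62). The question the comparisons address is whether the muscle's response to an unaccustomed run differs with the extent of frailty. Libraries held 19395125 to 30699216 counts each. Low Control D9 and High Run D62 stood apart across all genes, with a median Pearson r of 0.952 and 0.959 with the other mice against 0.970 to 0.981 for the other 13. Skeletal muscle transcripts dominated every library, since 10 muscle markers summed to 161856 to 242262 CPM (counts scaled to library size), so the tissue label held.

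Hemoglobin is built from alpha chains, encoded by Hba-a1 and Hba-a2, and beta chains, encoded in adult C57BL/6 mice by Hbb-bs and Hbb-bt, each chain holding a heme group that binds oxygen. Alas2 encodes the erythroid form of the first enzyme of heme synthesis, Slc4a1 encodes band 3, the anion exchanger of the red-cell membrane, and Trim10 encodes a tripartite-motif protein needed late in erythroid maturation. Mature mouse red cells have no nucleus, and the youngest circulating ones, the reticulocytes, still carry globin RNA. A muscle sample holds some blood unless it is washed out. In bulk muscle, fewer red cells and less RNA per red cell cannot be told apart.

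The globin copies lie close together. In GRCm38, Hba-a1 is at chr11:32283511-32284465 and Hba-a2 at chr11:32296489-32297298 on the plus strand, while Hbb-bs is at chr7:103826534-103828096 and Hbb-bt at chr7:103812524-103813996 on the minus strand. Their sequences decide how well each copy can be counted, so the stretch in which each pair differs is shown, with the differing base in capitals and positions counted from the A of the start codon. Over 426 coding bases, not counting the stop codon, Hba-a1 and Hba-a2 differ at 1 position, C381T.
Hba-a1: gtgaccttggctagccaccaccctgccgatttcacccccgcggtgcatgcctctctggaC
Hba-a2: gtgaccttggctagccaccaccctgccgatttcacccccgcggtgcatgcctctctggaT
Over 441 coding bases Hbb-bs and Hbb-bt also differ at 1 position, C417T.
Hbb-bs: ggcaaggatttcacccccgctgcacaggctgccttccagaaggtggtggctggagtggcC
Hbb-bt: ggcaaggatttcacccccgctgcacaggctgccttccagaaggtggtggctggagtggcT
Neither substitution changes a residue, so both alpha genes encode the same 142 residues and both beta genes the same 147, counting the first methionine. Of the 100-base windows of each transcript, 56.5% for Hba-a1, 74.5% for Hba-a2, 62.6% for Hbb-bs and 54.8% for Hbb-bt also occur in the transcript of the partner copy. Reads from those stretches align to more than 1 place and the authors kept only uniquely aligned pairs, so the split between copies is uncertain and the sum of a pair is a lower count of its RNA.

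The upstream sequences are shown as background, and any link between them and the joint movement of the members from mouse to mouse was not tested. They come from RefSeq on GRCm38.p6, in which 6 of the 7 genes had an entry and Slc4a1 did not. The 250 bases before each start were searched on both strands for GATAA, the core that GATA factors recognize, for CACCC, the core of Krüppel-like factor sites, and for CCAAT, and the matches of these motifs did not overlap each other. Each run below ends where the first annotated transcript of its gene begins, with matches in capitals. For Hba-a2 it is chr11:32296242-32296488 on the plus strand, and the same 247 bases stand letter for letter before the RefSeq start of Hba-a1.
Hba-a2: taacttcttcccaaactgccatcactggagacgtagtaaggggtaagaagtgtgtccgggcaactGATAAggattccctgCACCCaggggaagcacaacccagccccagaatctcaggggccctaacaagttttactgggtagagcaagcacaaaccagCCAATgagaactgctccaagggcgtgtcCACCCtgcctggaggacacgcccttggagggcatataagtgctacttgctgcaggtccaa
For Hbb-bs it is chr7:103828097-103828178 and for Hbb-bt chr7:103813997-103814173, both on the minus strand, and the latter ends inside a CCAAT match.
Hbb-bs: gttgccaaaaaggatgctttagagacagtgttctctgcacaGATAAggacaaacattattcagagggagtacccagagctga
Hbb-bt: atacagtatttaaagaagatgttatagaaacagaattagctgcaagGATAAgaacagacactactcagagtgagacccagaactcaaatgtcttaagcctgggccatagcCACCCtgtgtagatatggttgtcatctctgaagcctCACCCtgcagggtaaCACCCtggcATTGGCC
For Alas2 it is chrX:150547167-150547374 and for Trim10 chr17:36869324-36869495, both on the plus strand.
Alas2: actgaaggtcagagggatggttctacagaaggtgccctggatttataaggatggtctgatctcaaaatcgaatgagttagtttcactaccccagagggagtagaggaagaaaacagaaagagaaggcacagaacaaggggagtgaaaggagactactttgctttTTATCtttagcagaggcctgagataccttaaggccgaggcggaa
Trim10: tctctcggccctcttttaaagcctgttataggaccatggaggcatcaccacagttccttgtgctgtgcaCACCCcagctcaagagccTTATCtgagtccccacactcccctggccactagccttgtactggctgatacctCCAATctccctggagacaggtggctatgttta
GATAA occurred in 6 of the 6 windows and in 22.6% of the 32851 RefSeq windows of the same length. CACCC also occurred in 6 of 6, against 52.01% of all windows. CCAAT occurred in 5 of 6, Alas2 being the exception, against 33.8% of all windows. The windows searched end at the RefSeq start and can reach past the runs shown, into the annotated gene. The CACCC matches of Hbb-bs and Alas2 and the CCAAT match of Hbb-bs lie in that part and are not shown. A further CACCC match of Trim10 and a further CCAAT match of Hbb-bt also lie past the runs shown. All 3 motifs stood together in 5 of 6 windows and in 3.45% of all windows. Since Hba-a1 and Hba-a2 share their sequence here, they do not count as separate examples, and a match in letters is not a binding site.

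Per kilobase of exon, Hbb-bs was the most abundant member, with a mean of 824 CPM per kb over the 15 mice. Hba-a1 followed with 215, Hbb-bt with 61.05, Hba-a2 with 40.8 and Alas2 with 24.6 CPM per kb. Slc4a1, with 0.628, and Trim10, with 0.396 CPM per kb, were far lower. Together the 7 genes took 0.0261% (Wilson 95% interval 0.0255% to 0.0268%) of the counts in Low Run D61 and 0.389% (0.386% to 0.391%) in High Run D53, intervals that cover counting error only. Hba-a1 supplied 87.2% ± 2.71 of the alpha counts and Hbb-bs 93.7% ± 0.998 of the beta counts (SD, n = 15), shares that depend on which reads of the copies could be placed.

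Globin levels varied widely between mice of 1 group. Hba-a1 was measured at 95.4, 109, 477 and 195 CPM in Low Control D8, D9, D11 and D98, and at 50.7, 47.9, 124 and 161 CPM in Low Run D57, D61, D66 and D68. In the High frailty marked mice it was at 61.7, 99.2 and 70.6 CPM in High Control D23, D25 and D67, and at 191, 69.2, 562 and 304 CPM in High Run D49, D52, D53 and D62. Low Control D11 and High Run D53 held the highest levels of all, and the 3 High Control mice lay within a narrow range that Low Run D57 and D61 undercut. High Run D52 sat among the High Control mice, below D25 and just under D67, so the High groups overlapped.

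Hbb-bs gave the same picture at a higher level. Its CPM was 336, 386, 1565 and 649 in the Low Control mice, 185, 164, 396 and 547 in the Low Run mice, 211, 329 and 232 in the High Control mice and 629, 263, 2743 and 863 in the High Run mice, each in the mouse order given above. D53 exceeded D61 by 16.8 times. Hbb-bs was lower in every High Control mouse than in any Low Control mouse, while the run groups overlapped each other and their controls. Slc4a1 was also lower without overlap in High Control, and the other members overlapped between the control groups. The share of all genes that did so was not computed, so nothing is read from this.

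The lesser copies followed. Hba-a2 ranged from 11.3 to 57.9 CPM in Low Control, 5.77 to 24.6 in Low Run, 8.38 to 11.6 in High Control and 11.4 to 130 in High Run. Hbb-bt ranged from 14.7 to 118, 10.9 to 40.5, 13.2 to 19.6 and 17.7 to 181 CPM in the same order of groups. For both, the highest mouse was D53 and the next D11, and the spread was narrowest in High Control, where the highest mouse exceeded the lowest by 1.39 times for Hba-a2 and 1.48 times for Hbb-bt, against 11.4 and 10.2 times in High Run.

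Alas2, the heme-synthesis gene, was at 27.8, 39.1, 162 and 62.3 CPM in Low Control D8, D9, D11 and D98 and at 15.5, 15.4, 38.5 and 52.8 CPM in Low Run D57, D61, D66 and D68. High Control D23, D25 and D67 had 15.1, 28.2 and 18.4 CPM, and High Run D49, D52, D53 and D62 had 67.4, 23.3, 244 and 76.8 CPM. Again D53 and D11 stood highest, and D52 fell within the High Control range. Alas2 kept pace with the globins, at 65.0 ± 6.94 Alas2 counts per 1000 adult globin counts (SD, n = 15) and between 50.9 in D23 and 76.0 in D49.

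Slc4a1 and Trim10 had few counts, and the High groups did not overlap for either. Of all genes tested, 3.47% were higher in every High Run mouse than in any High Control mouse. Trim10 was chosen on this comparison, so nothing is read from the lack of overlap. Slc4a1 was at 0.309, 0.886 and 0.718 CPM in High Control D23, D25 and D67 and at 3.13, 1.11, 14.0 and 3.02 CPM in High Run D49, D52, D53 and D62, so no High Run mouse fell into the High Control range. In the Low groups it was at 0.998, 1.16, 10.3 and 3.32 CPM without running and at 0.715, 1.08, 1.45 and 3.86 CPM after it, and these overlapped. Trim10 rested on 2, 4 and 2 counts in High Control D23, D25 and D67 and on 31, 9, 115 and 17 counts in High Run D49, D52, D53 and D62, again without overlap. In Low Control D8, D9, D11 and D98 it had 3, 6, 79 and 23 counts, and in Low Run D57, D61, D66 and D68 it had 0, 10, 14 and 26. The 0 of D57 allows up to 0.126 CPM, the value of 3 counts, which exceeds the level in 2 of the 3 High Control mice.

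**Figure D1:**
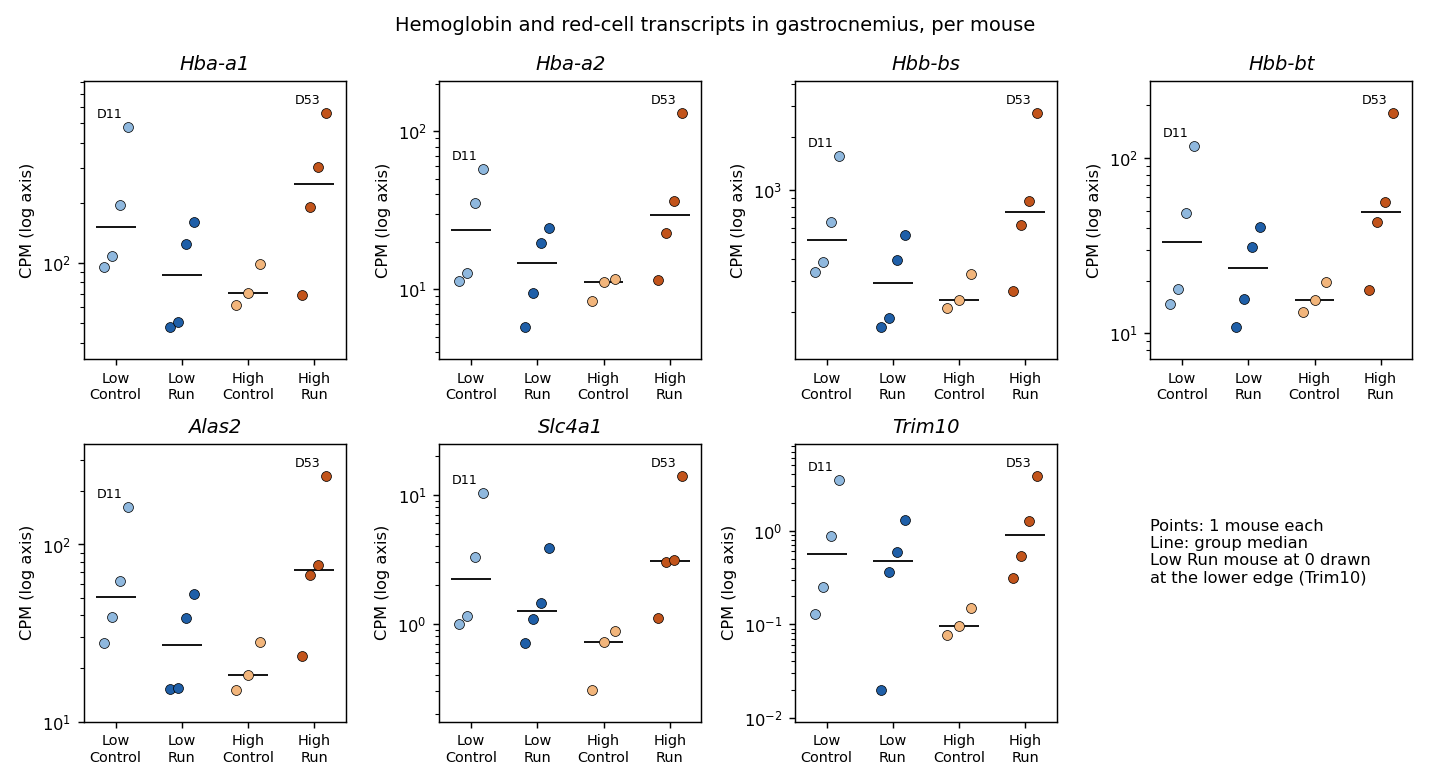
CPM of the 7 genes in every mouse (log axis, after TMM scaling), with 1 point per mouse and a line at each group's median; the Trim10 point of Low Run D57, at 0 CPM, is drawn at 0.02. Low Control D11 and High Run D53 are the highest mice for all 7 genes. Only for Slc4a1 and Trim10 do all 4 High Run points lie above all 3 High Control points. Of all genes tested 3.47% did so, and Trim10 was chosen on this comparison.

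Averaged over the 4 adult globins on the log2 CPM scale, the groups ranked High Run 7.04 ± 1.37 (SD, n = 4), Low Control 6.59 ± 1.14 (n = 4), Low Run 5.66 ± 0.88 (n = 4) and High Control 5.399 ± 0.258 (n = 3). Each group differed from its neighbour in that order by less than the larger SD of the pair. The sum of the 4 adult globins had a median of 725 CPM in Low Control, 416 in Low Run, 327 in High Control and 1072 in High Run.

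In Low Run against Low Control, fold changes of all 7 genes lay below 0, and no gene passed the test. The log2 fold change was −1.19 ± 0.59 (SE) for Hba-a1, −0.98 ± 0.67 for Hba-a2, −1.19 ± 0.62 for Hbb-bs and −1.02 ± 0.68 for Hbb-bt. It was −1.26 ± 0.65 for Alas2, −1.17 ± 0.81 for Slc4a1 and −1.10 ± 1.00 for Trim10. Adjusted p-values by edgeR's quasi-likelihood test with Benjamini-Hochberg adjustment over all genes were 0.380 for Hba-a1, 0.392 for Hbb-bs, 0.388 for Alas2, 0.475 for Hbb-bt, 0.483 for Hba-a2, 0.487 for Slc4a1 and 0.596 for Trim10. At an FDR of 0.1, edgeR called 0 of 16920 genes (0.0%), DESeq2 called 10 of 26711 (0.0374%) and voom with sample weights called 0 of 16920 (0.0%), and none of these calls was a member. At an unadjusted p under 0.05, edgeR counted 0 of the 7 against 2274 genes in all (13.4%), DESeq2 0 of 7 against 2642 genes in all (9.89%) and voom 4 of 7 against 1385 (8.19%). All 7 genes overlapped between the Low groups, where 3.35% of all genes tested were higher in every Low Run mouse than in any Low Control mouse and 3.59% were lower. The size of the difference rested on Low Control D11: the median log2 fold change of the 4 adult globins was −1.10 with this mouse and −0.45 without it, and Trim10 went from −1.10 to 0.36.

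In High Run against High Control, fold changes of all 7 genes lay above 0. The log2 fold change was 1.87 ± 0.67 (SE) for Hba-a1, 2.27 ± 0.77 for Hba-a2, 2.13 ± 0.71 for Hbb-bs, 2.20 ± 0.78 for Hbb-bt and 2.32 ± 0.74 for Alas2, which corresponds to 3.65, 4.82, 4.37, 4.61 and 5.00 times the control level. It was 3.05 ± 0.98 for Slc4a1 and 3.74 ± 1.33 for Trim10, whose summed counts of 172 in High Run and 8 in High Control give a CPM ratio of 13.9 (exact 95% interval 6.88 to 32.6, counting error only). Over all genes tested the median log2 fold change was 0.05. The High groups overlapped for the 4 globins and Alas2 and not for Slc4a1 and Trim10, beside 3.47% of all genes tested that were higher in every High Run mouse and 3.6% that were lower. The rule used this contrast, so nothing is read from that count. Without High Run D53 the median log2 fold change of the 4 adult globins was 1.227 in place of 2.17, and under voom with sample weights, which gives less weight to libraries that vary more, it was 0.86.

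**Figure D2:**
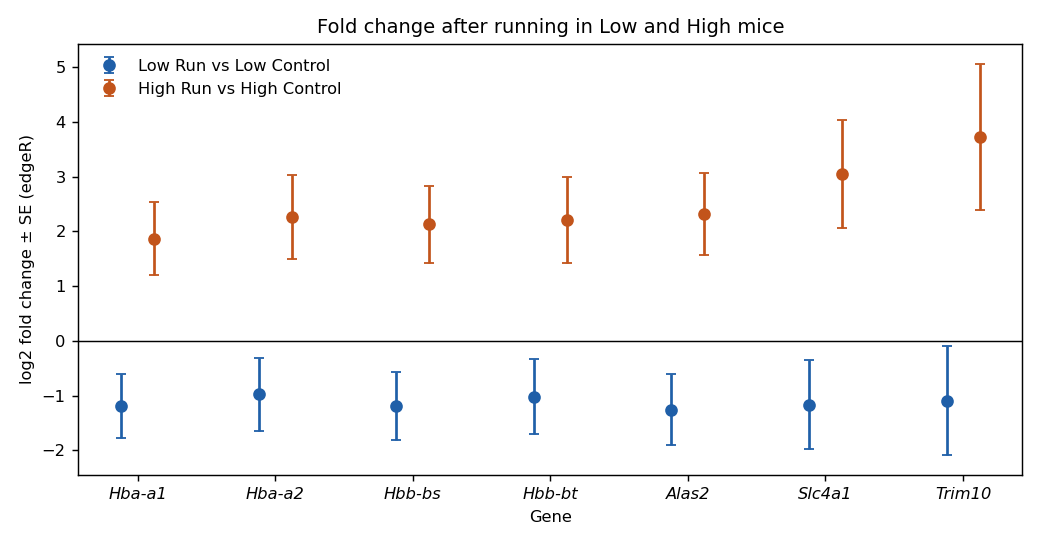
Log2 fold change with its standard error for each of the 7 genes from the edgeR fit of all 15 mice, in Low Run against Low Control (blue) and High Run against High Control (orange). The blue points lie between −1.26 and −0.98 and the orange points between 1.87 and 3.74.

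The Frailty × Run difference, which is the High fold change minus the Low one, was therefore positive for all 7 genes, from 3.06 ± 0.89 (SE) for Hba-a1 to 4.83 ± 1.67 for Trim10 on the log2 scale, with a median of 3.24 over the adult globins against 0.03 over all genes tested. Leaving out D11 and D53 together, a choice made after the data were seen, reduced that median to 1.63. The controls also differed before any run: High Control against Low Control gave a median of −1.51 over the adult globins, and −0.81 without D11. High Run against Low Run gave 1.68, and 0.76 without D53. These last comparisons share mice with the others and add no separate evidence. For Hbb-bs and Alas2, 4 of 4 Low Run mice lay below the mean of the Low Control mice and 4 of 4 High Run mice above the mean of the High Control mice on the log2 CPM scale. For Hba-a1 the same held for 4 of 4 Low Run and 3 of 4 High Run mice, and for Hba-a2, Hbb-bt, Slc4a1 and Trim10 for 3 of 4 Low Run and 4 of 4 High Run mice.

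The members rose and fell together over the 15 mice. The log2 CPM of Hbb-bs followed that of Hba-a1 (Pearson r = 0.990, Spearman rho = 0.993), Hba-a2 (0.975, 0.943), Hbb-bt (0.974, 0.929), Alas2 (0.994, 0.979), Slc4a1 (0.937, 0.893) and Trim10 (0.874, 0.825). The two-sided permutation p of Pearson's r was 1e-05, the smallest that 100000 resamples can give, for the first 5 and 3e-05 for Trim10, with adjusted values of 2.4e-05 and 6e-05 over the 12 correlations computed. For rho it was 1e-05 for the first 4, 3e-05 for Slc4a1 and 0.00034 for Trim10, with adjusted values of 3e-05 to 0.00068. Leaving out the mice farthest from the median, D11 and D53, gave r between 0.745 for Trim10 and 0.995 for Hba-a1. After subtraction of each group's mean, r lay between 0.851 for Trim10 and 0.993 for Alas2, with adjusted permutation p-values from 0.00012 to 0.00128, so the members moved together within groups as well.

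Correlations of Hbb-bs with markers of other cells were lower, and differences between correlations were not tested. Hbb-bs and the summed level of 8 platelet markers had r = 0.558 (permutation p = 0.0304, adjusted p = 0.0521) and rho = 0.546 (p = 0.0381, adjusted p = 0.0653), and r fell to 0.208 without D11 and D53. After subtraction of group means r was 0.671 (permutation p = 0.0457, adjusted p = 0.0783). High Run D62 had the third highest Hbb-bs and the lowest platelet sum, 6.05 CPM, against 36.8 in D53 and 35.7 in D11. With neutrophil markers r was 0.181 (p = 0.515), with B cell markers −0.0735 (p = 0.795), with T and NK cell markers −0.224 (p = 0.41), with endothelial markers 0.0583 (p = 0.831) and with skeletal muscle markers −0.359 (p = 0.187), all by permutation. Spearman's rho for these 5 was 0.0929 (p = 0.742), −0.0893 (p = 0.751), −0.196 (p = 0.483), 0.161 (p = 0.566) and −0.407 (p = 0.134). Without D11 and D53, r was 0.159, −0.389, −0.445, 0.374 and −0.466, and the adjusted p of r and rho was at least 0.28 and 0.201.

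**Figure D3:**
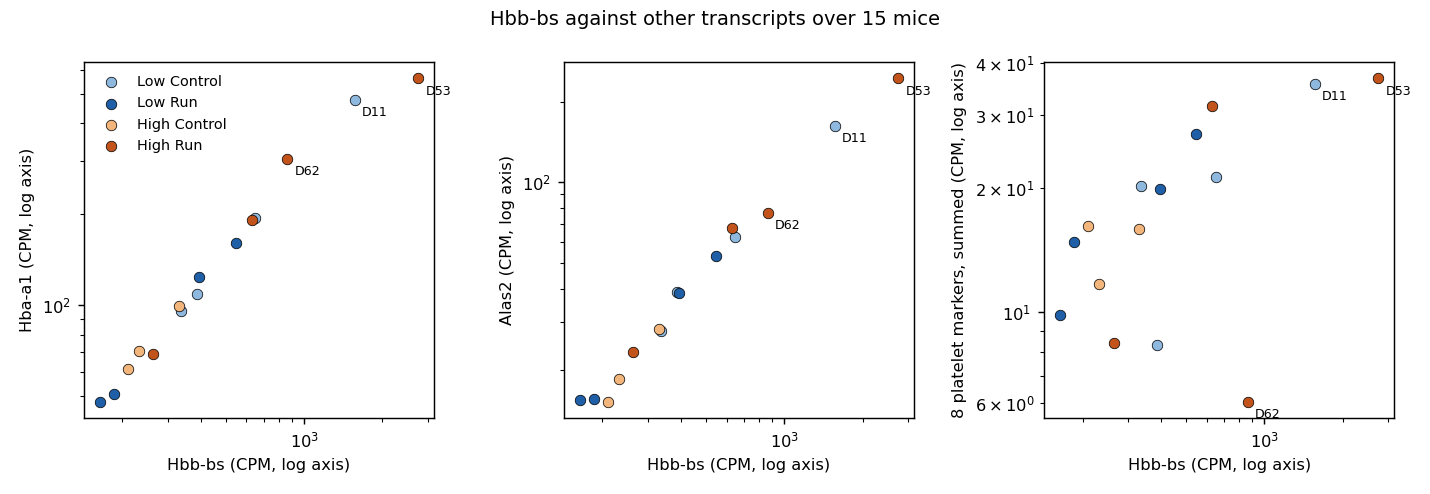
Hbb-bs against Hba-a1, Alas2 and the sum of 8 platelet markers in the 15 mice, all in CPM on log axes, coloured by group. Hba-a1 and Alas2 follow Hbb-bs closely (r = 0.990 and 0.994), while the platelet sum scatters and is lowest in D62.

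The balance of alpha and beta counts lay toward beta in every mouse and differed little between mice outside High Run. Only uniquely placed reads were counted, so the ratio need not be that of the RNAs. The alpha to beta ratio, taken per kilobase, was 0.302 ± 0.0267 (SD) over the 15 mice, and 0.290 to 0.319 in Low Control, 0.291 to 0.326 in Low Run and 0.304 to 0.319 in High Control. High Run held both extremes, 0.232 in D53 and 0.356 in D62. In D53 the Hba-a1 share of the alpha counts was also the lowest of all, 81.2%.

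Genes outside the list whose log2 CPM was most like the mean of the 4 adult globins over the 15 mice are given as a description. Among 16913 other genes, 5 of the 8 most alike were Mkrn1 (r = 0.954), Ube2l6 (0.936), Tent5c (0.931), Isg20 (0.897) and Car2 (0.875). After subtraction of group means their r was 0.907 to 0.942. Car2 encodes a carbonic anhydrase of red cells and other tissues. Mkrn1 encodes a RING-type ubiquitin ligase, Tent5c a poly(A) polymerase, Ube2l6 a conjugating enzyme of the ubiquitin-like protein Isg15, and Isg20 an interferon-induced exonuclease.

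Since these 5 were picked by their correlation over the same mice, directions like those of the members follow from the choice. Their log2 fold changes in Low Run against Low Control ran from −0.81 ± 0.56 (SE) for Tent5c to −0.01 ± 0.24 for Car2, which had no clear direction. In High Run against High Control they ran from 0.56 ± 0.26 for Car2 to 2.21 ± 0.57 for Isg20. Isg20 was at 2.91, 4.18, 10.6 and 4.90 CPM in Low Control D8, D9, D11 and D98, at 3.62, 2.74, 4.26 and 5.06 CPM in Low Run D57, D61, D66 and D68, at 1.62, 1.92 and 1.91 CPM in High Control D23, D25 and D67, and at 5.52, 3.30, 19.98 and 4.79 CPM in High Run D49, D52, D53 and D62. Its highest mice were thus D53 and D11, as for the globins. Every High Run mouse lay above every High Control mouse, beside 3.47% of all genes tested, and the authors named Isg20 among their calls in this comparison. Ube2l6 was at 7.68, 7.91, 44.2 and 17.9 CPM in Low Control, 12.1, 7.78, 11.3 and 14.1 in Low Run, 5.41, 9.05 and 7.56 in High Control and 18.2, 10.3, 79.1 and 18.96 in High Run, in the same mouse order. The part of red-cell content in the values of these interferon-related genes was not tested.

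**Figure D4:**
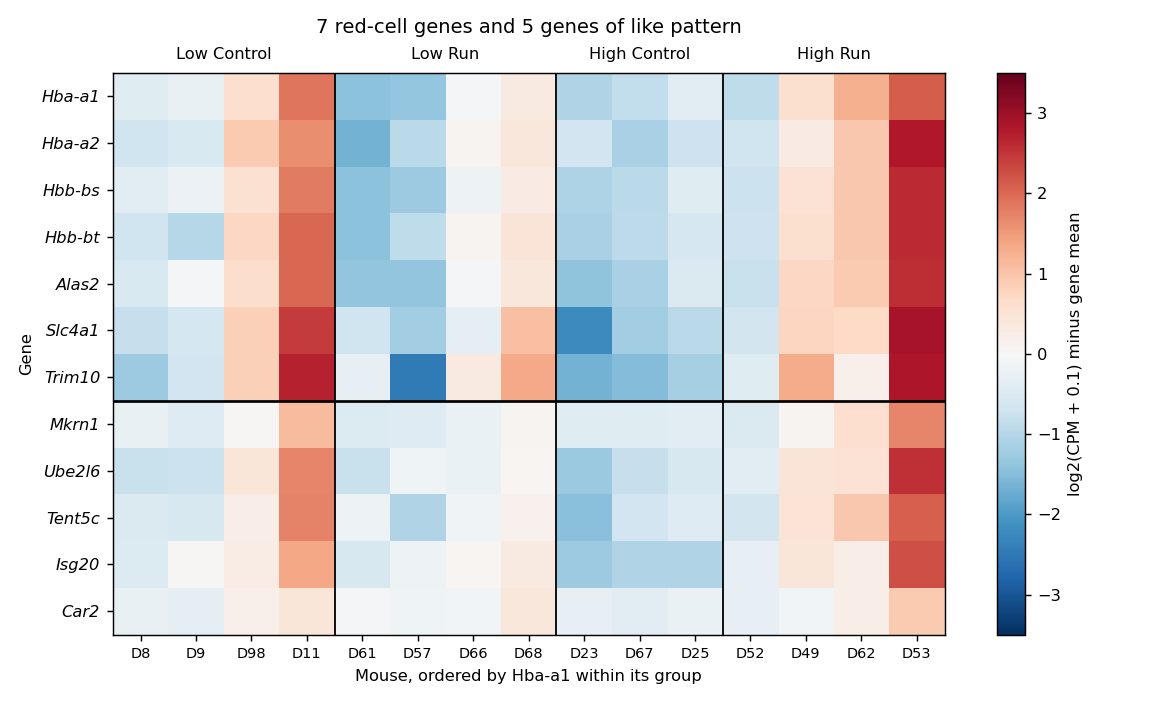
Log2(CPM + 0.1) of the 7 members (above the line) and of 5 genes of like pattern (below it) in each mouse, after subtraction of the gene's mean, with mice ordered by Hba-a1 within their group. The columns of D11 and D53 are the reddest of the 15 for the 7 members.

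Further red-cell lists, chosen by function, held genes of differing direction. The 8 embryonic and minor globins were almost absent: Hbq1b reached 11 counts in 1 mouse and 31 in all, Hbq1a gave 5 counts in all, and Hbb-bh0 and Hba-x 2 and 1. Myoglobin (Mb), the oxygen store of muscle fibres, was at a mean of 2542 CPM with log2 fold changes of 0.35 ± 0.22 (SE) in the Low and 0.01 ± 0.23 in the High comparison. Cytoglobin (Cygb) gave 0.25 ± 0.22 and 0.20 ± 0.24, and neuroglobin (Ngb) was too low to be tested.

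Of 23 genes of the red-cell membrane and erythroid proteins, 22 were matched and 16 tested, with a median log2 fold change of −0.12 in the Low and 0.15 in the High comparison beside 0.02 and 0.05 over all genes. In the High mice, 3 of the 16 were higher without overlap, Tspo2 among them, beside 3.47% of all genes tested. Lower without overlap were 2, Car1 and Tmod1, beside 3.6%. Tspo2, which encodes an erythroid membrane protein, and Car1, a red-cell carbonic anhydrase, were named after their values were seen. Tspo2, on 1 to 31 counts per mouse, had log2 fold changes of −1.74 ± 0.92 (SE) in Low and 3.08 ± 1.14 in High mice. Its r with the globin mean was 0.859. Car1, on 10 to 25 counts, had 0.18 ± 0.35 and −0.48 ± 0.37, with r = −0.126. The 4 most abundant of the list were cytoskeletal genes that muscle fibres also express. Ank1, Sptb, Tmod1 and Epb41 had mean levels of 562, 436, 415 and 149 CPM and correlated with the globin mean at r = 0.05, −0.10, −0.53 and 0.14. Their log2 fold changes in the High comparison were −0.40 ± 0.38, 0.33 ± 0.34, −0.52 ± 0.16 and −0.03 ± 0.15 (SE). In the Low mice Epb41 alone was without overlap, lower after running at −0.46 ± 0.14, beside 3.59% of all genes tested.

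Some erythroid transcription factors were at the edge of detection. Gata1 had 48 counts and Klf1 50 over all 15 mice, and 4 of 8 genes of that list were tested. The most abundant of them, Zfpm1, at 5.96 CPM, gave −0.08 ± 0.18 (SE) as its log2 fold change in Low mice and 0.01 ± 0.19 in High mice, and Tal1 had −0.37 ± 0.27 and 0.07 ± 0.29. Nfe2 had 0.87 ± 0.74 and 0.74 ± 0.84, and the erythropoietin receptor Epor 0.76 ± 0.61 and 0.16 ± 0.61. Markers of marrow progenitors were also near 0, with Mpo at 25 counts, Elane at 11 and Ctsg and Ms4a3 at 1 each over all mice. The cell-cycle gene Mki67, at 0.866 CPM and 4 to 94 counts per mouse, was higher without overlap in High Run, beside 3.47% of all genes tested.

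The 9 genes of heme synthesis, Alas2 among them, had a median log2 fold change of 0.06 in Low mice and −0.09 in High mice. Uros, a synthase of the pathway named after its values were seen, was higher without overlap in Low Run at 0.60 ± 0.18 (SE; edgeR adjusted p = 0.358) and had −0.09 ± 0.19 in High mice. Fech, which inserts iron into the porphyrin ring, had −0.09 ± 0.10 in Low mice and was lower without overlap in High Run at −0.19 ± 0.11, while the housekeeping synthase Alas1 had −0.01 ± 0.19 and −0.23 ± 0.20, and Urod 0.20 ± 0.13 and −0.05 ± 0.14. The 13 genes of heme and hemoglobin clearance and iron storage had medians of 0.11 and 0.30. In the High mice 12 of 13 lay above 0, beside 57.2% of all genes tested, and 2 of 13 were higher without overlap, beside 3.47%. These were the ferritin light chain Ftl1 at 0.47 ± 0.16 and the phagocyte metal transporter Slc11a1 at 0.65 ± 0.19, while 1, the heme-binding protein gene Hpx, was lower without overlap, beside 3.6% of all genes. The highest fold change of the list in High mice was that of the heme-degrading enzyme heme oxygenase, Hmox1, at 0.94 ± 0.36 with overlapping groups, against −0.24 ± 0.32 in Low mice. In the Low mice the hemoglobin receptor Cd163 was lower without overlap, at −0.59 ± 0.24, and Slc11a1, Hpx, Hmox1 and Cd163 were named after their values were seen. The ferritin heavy chain Fth1 gave 0.11 ± 0.17 and 0.25 ± 0.19, Lrp1 −0.23 ± 0.25 and 0.30 ± 0.27, and the heme transporter Slc48a1 −0.05 ± 0.14 and 0.06 ± 0.15.

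Other blood cells had their own peaks. The 11 neutrophil markers, led by S100a9 and S100a8, summed to 516 CPM in Low Run D68 and to 4.80 to 81.7 CPM elsewhere. The 7 B cell markers, of which Ighm and Jchain were the most abundant, ranged from 71.2 to 471 CPM in Low Control, 38.0 to 884 in Low Run, 141 to 494 in High Control and 125 to 244 in High Run. The 8 T and NK cell markers summed to 0.540 to 1.504 CPM in Low Control, 0.902 to 17.4 in Low Run, 0.702 to 1.12 in High Control and 1.70 to 2.85 in High Run. The High groups did not overlap in this sum, as for Slc4a1 and Trim10. Of the 4 genes of the list that were tested, 2 were higher without overlap in High Run, beside 3.47% of all genes tested. The part of these cells in the values of the red-cell genes was not tested. The 8 platelet markers, led by Pf4, Itga2b, Ppbp and Tubb1, ranged from 8.32 to 35.7, 9.84 to 27.0, 11.7 to 16.1 and 6.05 to 36.8 CPM in the same order of groups, and overlapped. The 10 endothelial markers ranged from 437 to 575, 327 to 464, 412 to 437 and 381 to 550 CPM, and D53 had the lowest endothelial sum of the High Run mice. Over the 122 genes of the lists beside the 7, of which edgeR tested 92, edgeR called 0 and DESeq2 1, Ighd, at an FDR of 0.1 in the Low comparison, with 17 of the 92 at an unadjusted p under 0.05 by edgeR, beside 13.4% of all genes. Of these, 6 were among the 7 B cell markers and 4 were the 4 tested T and NK cell markers. The median log2 fold change of these lists in the Low comparison was 3.28 and 2.75, above 0, where the 7 members lay below 0.

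The globins bear on 1 gene set in particular. The hydrogen peroxide metabolic process set lists 51 genes, of which 6 are globins: Hba-a1, Hbb-bt, Hba-x, Hbq1a, Hbq1b and Hbb-bh1. The authors chose the set on the High comparison and the interaction of these mice, so its differences there are a description without a test. A score per mouse was taken as the mean over genes of the deposited variance-stabilized value (VST, close to log2 for abundant genes) minus the gene's mean over mice. With all 51 genes the score was 0.0140 ± 0.0760 in Low Control, −0.0153 ± 0.0614 in Low Run, −0.129 ± 0.0532 in High Control and 0.0979 ± 0.0837 in High Run (SD; n = 4, 4, 3 and 4). Every High Run mouse, from 0.0377 to 0.222, lay above every High Control mouse, from −0.188 to −0.0852, and D53 was the highest of all.

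The High difference in the score was 0.227 with all genes. Without the 6 globins it was 0.175, and the High groups still did not overlap. As a sum over genes, the globins, 11.8% of the set, carried 31.8% of the High difference. Hba-a1 and Hbb-bt supplied 27.2% and the other 4, of which Hbq1b had 31 counts in all, 4.59%. Leaving out each High mouse in turn gave a globin share from 26.1% without D53 to 39.6% without D52.

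Of single genes, Hbb-bt carried 14.3% of the High difference and Hba-a1 12.9%. The metallothionein Mt3 carried 11.2%, and the NADPH oxidase subunits Cybb, Nox4 and Nox1 carried 6.88%, 4.95% and 4.91%, Nox1 on 30 counts in all. The mean VST difference was 0.613 per globin and 0.175 per gene over the other 45, which together carried 68.2% of the High difference.

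In the Low mice the whole difference was −0.0293 (exact two-sided permutation p = 0.571, adjusted p = 0.685 over the 6 score differences), to which the globins contributed −0.0357, more than the total. Without them it was 0.00731 (exact permutation p = 0.886, adjusted p = 0.886). The Low mice are part of the interaction on which the set was chosen, so these p-values are not fully independent of that choice. For the Frailty × Run interaction the score gave 0.256 with all genes and 0.168 without the globins, and the globins carried 42.1% of the interaction.

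**Figure D5:**
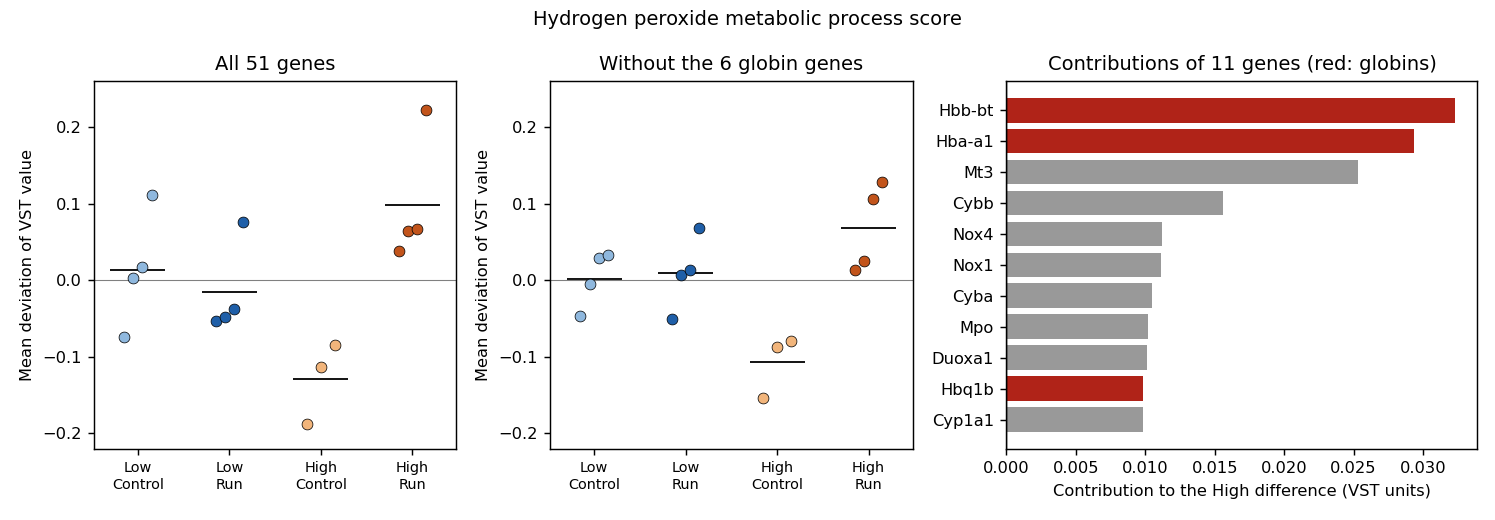
Score of the hydrogen peroxide set per mouse (mean deviation of the VST value, line at the group mean) with all 51 genes and without the 6 globins, and the contributions of 11 single genes to the High Run minus High Control difference (globins in red). The High groups stay apart in both scores, and Hbb-bt and Hba-a1 have the longest bars of the genes shown.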

How the data were processed

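RNA sequencing of poly(A) RNA from the gastrocnemius of 15 mice was used. Per the study's methods, the authors aligned reads to mm10 with STAR 2.7.9a and counted uniquely aligned proper pairs on the gene's strand with featureCounts against Ensembl build 100, leaving out mitochondrial genes. The version of Subread, which holds featureCounts, is 2.0.3 in the submitters' processing notes and that of DESeq2 1.32.0, and the methods give other versions. The deposited counts are whole reads per gene without normalization, and the deposited VST values are the authors' DESeq2 variance-stabilized counts on a log2-like scale. The labels call Low mice robust and High mice frail, and replicates are separate animals, without shared numbers or a stated batch.

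Here, counts were filtered with filterByExpr, scaled by TMM and fitted with edgeR 4.0.16 in R 4.3.3, with 1 mean per group and Benjamini-Hochberg adjustment over 16920 genes (FDR 0.1). The standard error is the log2 fold change divided by the root of the F statistic. Log2 CPM used a prior count of 2. Exact permutation tests of the score doubled the smaller tail, with 70, 35 and 2450 arrangements for the Low, High and interaction differences (SciPy 1.17.1 in Python 3.11.15). The p-values of the last 2 are not given, since the authors chose the set on those comparisons. Summed marker CPM were correlated as log2 of the sum plus 0.5. Alternatives were DESeq2 1.42.0, voom in limma 3.58.1, other scalings, no filter, other scores and leaving out each mouse. Fits and exact tests were tested on simulated data. Names, lengths and gene coordinates came from GENCODE M21 on GRCm38, the build of mm10. Columns left out of the deposited tables numbered 0.

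The members and lists were chosen with earlier results of these data known. Named genes are the 7 members and, with some not reported here, the 4 most abundant genes of each other list, the globins and the 5 other largest contributors of the peroxide set, and the 8 genes most like the globin mean. Ahsp was not matched and is not analysed here.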

Additional observations from a re-analysis of the deposited data

Results flagged for a closer look

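In groups of 4 mice, a mouse was marked where its distance to the nearest other mouse took up a share of the group's range above Dixon's 95% critical value, which chance gives in about 1 in 20 groups; 45 groups were examined. High Run D53 was marked for Slc4a1, at 14.0 CPM against 1.11 to 3.13 in the other High Run mice, and for the hydrogen peroxide score with all genes, at 0.222 against 0.0377 to 0.0675. Low Run D68 was marked for the same score, at 0.0763 against −0.0531 to −0.0370. Neither mouse was marked once the globins were removed from the score.

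Among marker sums, neutrophil markers were marked in Low Control D8, at 81.7 CPM against 13.4 to 23.9, and in Low Run D68, at 516 CPM against 15.1 to 21.9. B cell markers were marked in Low Control D11, at 471 CPM against 71.2 to 82.2, the mouse with the second highest globins. T and NK cell markers were marked in Low Run D61, at 17.4 CPM against 0.902 to 3.03, the mouse with the lowest Hba-a1, Hba-a2, Hbb-bs and Hbb-bt.

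The Frailty × Run difference of the hydrogen peroxide score was also marked, at 0.256 with all genes and 0.168 without the globins. The authors chose the set for this interaction, so the mark is not independent of the choice. It is no evidence for the difference, and p-values are not given. For Hbb-bs and Alas2 every Low Run mouse lay below the mean of its controls and every High Run mouse above it, with interaction log2 fold changes of 3.31 and 3.58; since the members were chosen with these comparisons in view, that difference was not tested. In the other 5 members 1 mouse went the other way, a High Run mouse for Hba-a1 and a Low Run mouse for the rest.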

How the results depend on the processing

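The median log2 fold change of the 4 adult globins kept its direction in all 5 comparisons under every alternative run. Leaving out 1 mouse at a time gave −1.47 to −0.45 in Low Run against Low Control, 1.227 to 2.48 in High Run against High Control, 2.33 to 3.58 for Frailty × Run, −1.76 to −0.81 in High Control against Low Control and 0.76 to 2.02 in High Run against Low Run. It moved by more than the within-group SD of 1.00 with voom's sample weights, to 0.86 in High Run against High Control, 2.14 for Frailty × Run and 0.53 in High Run against Low Run, and to 1.63 for Frailty × Run without D11 and D53; the cause was not tested. Of single genes, Trim10 changed direction in Low Run against Low Control: it ranged from −1.88 to 0.36 over mice left out, the positive value being without D11, and was 0.37 without D11 and D53. No member passed in that comparison under any alternative.

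With all 51 genes the peroxide score's Low difference changed sign to 0.0367 with the median over genes, 0.0730 with genes divided by their SD and 0.00297 without D11 (alone or with D53), and ranged from −0.0598 to 0.00297 over mice left out. Its interaction difference was 0.0595 with the median and 0.182 without D11 and D53, against 0.256, and 0.215 to 0.287 over mice left out. With genes divided by their SD it was 0.298, in SD units, so its size cannot be set against 0.256 in VST units. Without the globins the Low difference ranged from −0.0124 to 0.0275 over mice left out. The interaction difference was 0.0418 with the median and 0.139 without D11 and D53, against 0.168, and 0.145 to 0.188 over mice left out. It was 0.224 on log2 CPM of the tested genes and 0.208 with genes divided by their SD, both on other scales than 0.168. It stayed above 0 in each of these. The called genes of the other lists went from 0 to 1 with DESeq2. No paired analysis was possible because the groups share no replicate numbers. The cause of these changes was not tested. Depth limits Trim10 and Slc4a1, with as few as 0 and 8 counts in a mouse.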
